A study of Mus musculus with 51 samples.

Results

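In the epiblast of mouse embryos at embryonic day 6.5, 921 of 11810 autosomal H3K27me3 peaks (7.80%) had no counterpart in the extra-embryonic ectoderm (ExE). They were taken from the study's table of epiblast H3K27me3 peaks, and a peak counted when it overlapped a wild-type epiblast peak list of either cross and no peak of the 2 wild-type ExE lists, by at least 1 bp. The other 10889 peaks overlapped an ExE peak and are called shared below. The regions were therefore chosen by wild-type H3K27me3 in both tissues, and its values are given as a description.

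The epiblast gives rise to the embryo proper, and the ExE is the trophoblast tissue beside it from which much of the placenta forms. H3K27me3 is deposited by Polycomb repressive complex 2, mostly over CpG-rich promoters and around silent developmental genes. H3K4me3 marks active or poised promoters, and H3K36me3 is laid down over the bodies of genes while they are transcribed. A promoter with H3K27me3 and H3K4me3 together is often called bivalent.

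The embryos were F1 hybrids of C57BL/6 (B6) and CAST mice, written with the mother first, so that B6/CAST and CAST/B6 are the reciprocal wild-type crosses. In matDKO/CAST, mothers of mixed B6/129 background that carried floxed alleles of Dnmt3a and Dnmt3b and a Zp3 transgene, which is active in growing oocytes, were mated with CAST males. Their eggs lacked de novo DNA methylation, while the embryo kept the paternal copies of both genes. A library came from a pool of dissected tissue, stated as 4 epiblasts or 8 ExE and an estimated 2500 cells, and each cross, tissue and mark had 2 libraries. Values are RPKM of the authors' 1 kb windows, and library values are listed in the order B6/CAST, then CAST/B6, with 2 replicates each. Aligned reads per library (M, 1e6 reads) ranged from 3.68 to 14.8 M for H3K27me3 in epiblast, from 10.3 to 22.9 M in ExE, from 4.01 to 17.9 M for H3K4me3 and from 2.09 to 12.6 M for H3K36me3. In a region of the median length these depths correspond to 8.80 to 53.4 H3K27me3 reads in an epiblast library and 15.0 to 33.3 in an ExE library. Replicates were pools of embryos, so p-values measure the spread between such pools.

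Marks of the labelled tissues were checked on known genes. H3K4me3 at the promoter of Pou5f1, which encodes the pluripotency factor OCT4, lay between 39.0 and 55.4 RPKM in epiblast and between 3.79 and 10.6 in ExE. H3K4me3 at Cdx2, a trophoblast regulator, was 7.47 to 16.3 RPKM in epiblast and 22.0 to 35.6 in ExE. Of 17 epiblast markers tested, 10 had less promoter H3K4me3 in ExE and 1 had more (Dppa4, log2 2.24), and of 26 ExE markers 8 had more and 2 less (Sox2 and Tfap2a), or 17 and 2 after centring and by edgeR. Summed H3K4me3 was 335.8 to 431.6 RPKM in epiblast and 177 to 255 in ExE for the epiblast markers, and overlapped for the ExE markers (379 to 511 and 463 to 579 RPKM). Markers of visceral endoderm, the layer that envelops both tissues, had more H3K36me3 in the ExE libraries, where the sum over 17 such genes was 18.6 to 26.4 RPKM against 9.56 to 12.02 in wild-type epiblast. Their summed H3K4me3 overlapped between the tissues, at 106.1 to 150.6 and 105.1 to 167.9 RPKM, with 9 of 16 promoters higher in ExE and 3 lower (Sox17, Cer1 and Lrp2). Of the ectoplacental cone and giant cell markers, 1 of 5 tested had more H3K4me3 in ExE (Hand1, log2 0.85, limma adjusted p = 5.91e-05), and H3K4me3 of the defining genes Prl3d1 and Tpbpa stayed at or below 0.325 RPKM in every wild-type library. All 5 decidua and blood markers tested had less H3K4me3 in ExE by limma (4 after centring), with a sum over the 10 genes of 24.4 to 41.1 RPKM in epiblast and 15.4 to 21.4 in ExE, while H3K4me3 of Hba-a1 stayed at or below 0.250 RPKM, and their part in the results was not tested. The 2 CAST/B6 ExE libraries of H3K36me3 stood apart from those of B6/CAST, with a median over all promoters of 0.515 and 0.494 RPKM against 0.268 and 0.287.

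Promoter sequences of genes the results turn on lay within these regions. They are shown 5′ to 3′ for the coding strand, from 250 bases before to 50 bases after the RefSeq start on GRCm38.p6, with every CpG in capitals because Polycomb marks CpG-rich DNA. Id2 and Mob3c had more gene-body H3K36me3 in ExE, Klhl22 more of both active marks and Nnat less H3K4me3. The Id2 window lies 1048 bp from the annotated 5′ end used for the measurements.
Id2, chr12:25096043-25096342, minus strand: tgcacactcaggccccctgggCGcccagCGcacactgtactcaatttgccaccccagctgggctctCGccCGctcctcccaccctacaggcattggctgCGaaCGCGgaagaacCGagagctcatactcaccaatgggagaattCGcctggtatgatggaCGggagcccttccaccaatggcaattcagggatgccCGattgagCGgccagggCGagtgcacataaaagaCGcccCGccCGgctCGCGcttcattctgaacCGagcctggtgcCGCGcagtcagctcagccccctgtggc
Mob3c, chr4:115827830-115828129, plus strand: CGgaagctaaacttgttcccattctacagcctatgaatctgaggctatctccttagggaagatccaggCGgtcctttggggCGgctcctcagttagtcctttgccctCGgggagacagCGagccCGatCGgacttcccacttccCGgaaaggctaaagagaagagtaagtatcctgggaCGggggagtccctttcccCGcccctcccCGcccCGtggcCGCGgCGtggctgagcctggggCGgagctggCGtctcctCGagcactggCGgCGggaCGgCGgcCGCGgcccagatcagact
Klhl22, chr16:17759371-17759670, plus strand: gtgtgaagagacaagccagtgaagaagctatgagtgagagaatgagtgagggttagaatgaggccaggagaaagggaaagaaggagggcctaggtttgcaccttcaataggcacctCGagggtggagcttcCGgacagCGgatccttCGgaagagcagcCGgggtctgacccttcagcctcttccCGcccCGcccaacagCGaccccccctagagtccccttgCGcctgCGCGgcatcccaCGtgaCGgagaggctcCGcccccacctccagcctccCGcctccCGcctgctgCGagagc
Nnat, chr2:157559828-157560127, plus strand: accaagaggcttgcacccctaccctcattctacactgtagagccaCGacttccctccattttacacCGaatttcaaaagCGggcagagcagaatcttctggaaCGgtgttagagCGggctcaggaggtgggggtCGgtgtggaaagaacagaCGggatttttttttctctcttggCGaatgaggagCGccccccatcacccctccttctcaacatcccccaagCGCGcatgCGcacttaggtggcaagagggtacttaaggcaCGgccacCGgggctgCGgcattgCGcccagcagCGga
These windows hold 21, 24, 17 and 17 CpGs in the order shown. RefSeq promoter windows were found for 117 of the 158 genes described below, and 102 lay inside the region. The median of the 102 was 22 CpGs per window, from 2 to 63, against 7 over all 31365 RefSeq promoters.

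Compared with shared peaks, the 921 regions were short and often far from genes. The median length was 3500 bp against 8000 bp, and 658 (71.4%) spanned at most 5000 bp, against 31.1% of shared peaks. In total they covered 4.14 Mb. The median distance to the nearest 5′ end of a protein-coding gene was 24417 bp against 3408 bp. A protein-coding 5′ end lay within 144 regions (15.6%; 39.2% of shared peaks), another 73 held the 5′ end of a non-coding or other gene, 239 lay in a gene body and 465 (50.5%) were intergenic. Median GC content was 43.6% against 46.6% and the observed over expected CpG ratio 0.230 against 0.258. Within the 144 promoter regions, this ratio was 0.454, against 0.309 in shared promoter peaks. The nearest ExE peak was typically far away, with a median gap of 31500 bp. ExE H3K27me3 was broad as a whole, since the deposited ExE lists of the 2 crosses covered 369 and 478 Mb of the autosomes and the epiblast lists 104 and 117 Mb.

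The regions were less often called in both crosses than shared peaks. They overlapped peaks of both epiblast lists in 271 cases (29.4%; 66.7% of shared peaks), of the CAST/B6 list alone in 464 and of the B6/CAST list alone in 186. The 271 had a median length of 5500 bp and a median epiblast mean of 1.29 RPKM, while the 650 found in 1 cross had 3000 bp and 0.821 RPKM. Their median ExE means were 0.412 and 0.405 RPKM.

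Over the 921 regions, the library median of H3K27me3 was 0.740, 0.953, 1.03 and 0.982 RPKM in wild-type epiblast and 0.394, 0.413, 0.415 and 0.385 in wild-type ExE. The ExE values were below those of the inputs, whose medians over the same regions ranged from 0.452 to 0.499 RPKM. At shared peaks the same medians were 1.07 to 1.37 RPKM in epiblast and 1.28 to 1.61 in ExE. All 4 ExE libraries lay below all 4 epiblast libraries in 639 regions (69.4%; 16.7% of all peaks, which follows from the choice of regions), and in the other 282 the libraries overlapped. In 6 regions the ExE mean was at or above the epiblast mean. A signal of pooled cells cannot tell fewer cells with a mark from less of the mark per cell.

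**Figure D1:**
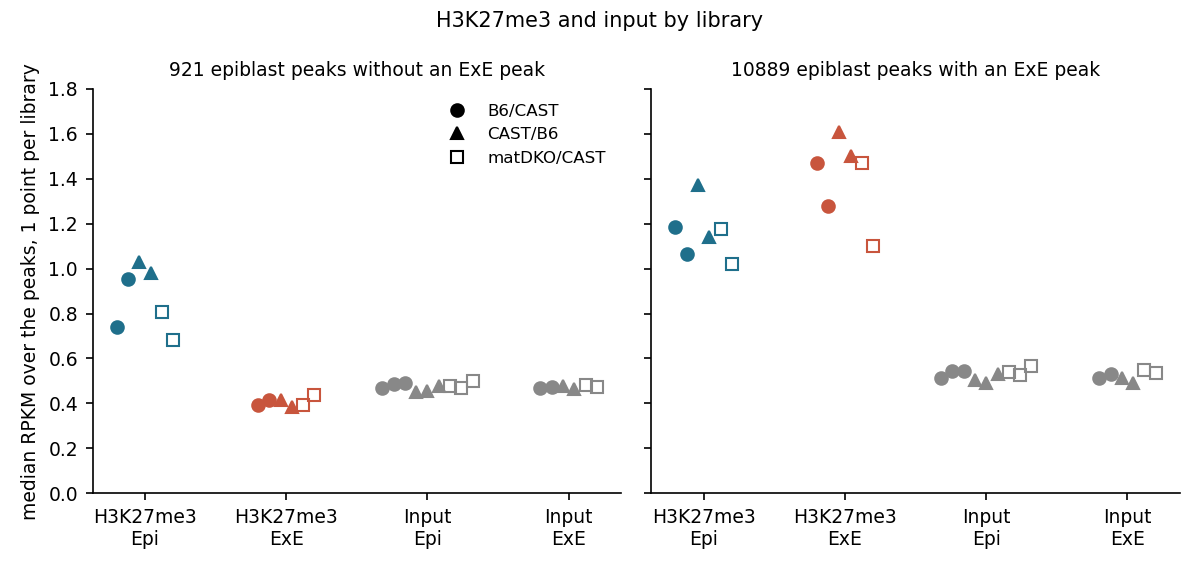
Median RPKM of H3K27me3 and of input over the regions without an ExE peak (left) and over shared peaks (right), with 1 point per library, colour for the tissue and shape for the cross. On the left every H3K27me3 library of ExE lies between 0.385 and 0.436 RPKM, below every H3K27me3 library of epiblast and every input; on the right the H3K27me3 libraries of the tissues overlap, at 1.07 to 1.61 RPKM in wild type.

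Some regions lay close to an ExE peak. In the 11 whose gap to an ExE peak was at most 1000 bp, the median of the wild-type means was 0.962 RPKM in epiblast and 0.425 in ExE. For the 215 peaks that overlapped an ExE peak by at most 1000 bp, these medians were 1.04 and 1.15 RPKM.

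The largest regions lay both at genes and between them. Tead4, a transcription factor needed to form trophectoderm, carried 1.88, 2.81, 3.39 and 2.51 RPKM of H3K27me3 in epiblast and 0.398, 0.627, 0.485 and 0.448 in ExE over the 10000 bp at its promoter (chr6:128297001-128307000). A 28000 bp region on chromosome 2 (chr2:50895001-50923000), which contains the 5′ end of the predicted gene Gm13498 and lies 226111 bp from Rnd3, a small GTPase, had 1.31, 2.38, 2.33 and 2.31 RPKM in epiblast and 0.499, 0.632, 0.398 and 0.485 in ExE. The longest, of 30000 bp, lay 19355 bp from Nudt4, a nudix hydrolase, with epiblast and ExE means of 1.90 and 0.547 RPKM. In none of these 3 did the 2 tissues overlap. Intergenic regions lay 10718 bp from Cited2, a transcriptional coregulator with a role in placental development (means of 2.21 and 0.298 RPKM), and 153077 bp from Myof, which encodes the membrane protein myoferlin (1.95 and 0.391 RPKM). Others covered the promoters of Usp3, a histone deubiquitinase, and Zc3hav1l, 21500 bp each, and 12000 bp in the body of Map2k6, a MAP kinase kinase. The region within Cfap53, a gene for a cilia protein, was long (20000 bp) but weak, at 0.888 and 0.391 RPKM.

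The matDKO/CAST libraries did not enter the choice of regions and allowed a test of the same mark. H3K27me3 was lower in ExE than in epiblast at 391 of the 921 regions (42.5%) and higher at 4 (limma over all 11810 peaks, Benjamini-Hochberg adjusted p under 0.05, two-sided). Over all peaks, 9.09% were lower and 11% higher. The median log2 difference was −0.41 in these regions and 0.09 over all peaks, and 682 of the 10889 shared peaks were lower and 1294 higher. Both ExE libraries lay below both epiblast libraries in 601 regions (65.3%), against 20.9% of all peaks. Library medians over the regions were 0.809 and 0.680 RPKM in matDKO/CAST epiblast and 0.393 and 0.436 in ExE. On simulated libraries the matDKO/CAST fits made false calls above the threshold, a limit on these counts and on the matDKO/CAST counts of the other marks below.

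The share of lower regions is given by position and by the number of crosses in which the peak was called. Of the 144 regions with a protein-coding 5′ end, 89 were lower (61.8%), of the 239 in gene bodies 123 (51.5%), of the 465 intergenic ones 152 (32.7%) and of the 73 with another 5′ end 27 (37.0%). For shared peaks these shares were 9.38%, 4.09%, 3.67% and 6.58%. Of the 271 regions called in both wild-type crosses, 199 were lower in matDKO/CAST ExE (73.4%), and of the 650 called in 1 cross 192 (29.5%), against 8.26% and 2.26% of shared peaks. At Id2, a helix-loop-helix protein without a DNA-binding region that is known from trophoblast progenitors, the 12000 bp region had 1.41 and 1.18 RPKM in matDKO/CAST epiblast and 0.176 and 0.194 in ExE (log2 difference −1.39, SE 0.19, limma adjusted p = 2.13e-07). The largest difference among the named regions was that near Cited2, at −1.63 (SE 0.20, limma adjusted p = 4.4e-08), with 2.60 and 1.83 RPKM in epiblast and 0.263 and 0.485 in ExE. At Tead4 it was −1.37 (SE 0.20, limma adjusted p = 9.5e-07). The region in Cfap53 did not pass (−0.32, SE 0.17, limma adjusted p = 0.188). With only the matDKO/CAST groups in the fit, 276 regions were lower. The 9.09% of all peaks belongs to the main fit, and not to this count or those that follow. The number of lower regions fell to 203 without matDKO/CAST ExE replicate 2 and to 218 when libraries were weighted by their spread, and the number of higher regions was 24 without matDKO/CAST epiblast replicate 1, 2 without epiblast replicate 2 and 1 without ExE replicate 2.

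**Figure D2:**
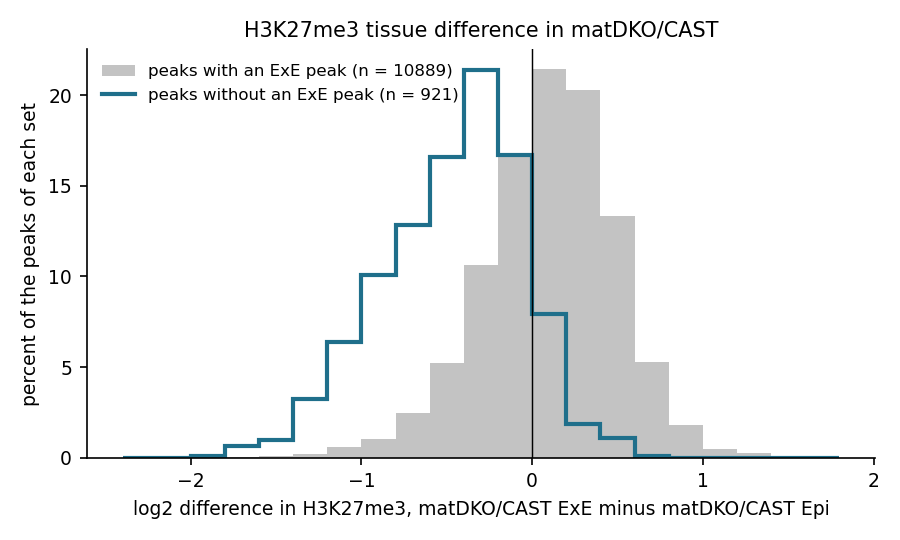
Distribution of the log2 difference in H3K27me3 between matDKO/CAST ExE and epiblast, in bins of 0.2, for the 921 regions without a wild-type ExE peak (line) and the 10889 shared peaks (grey). The y axis is the percent of each set; the line is shifted to the left, with a median of −0.41 against 0.12.

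Many of the regions also carried H3K4me3. A wild-type H3K4me3 peak overlapped 454 (49.3%) in epiblast and 444 (48.2%) in ExE, and 421 had one in both tissues. For shared peaks these shares were 66.9% and 67.4%. At the 144 promoter regions H3K4me3 peaks covered 97.2% in either tissue, near the 94.5% and 95.3% of shared promoter peaks. H3K36me3 peaks overlapped 294 regions in epiblast (31.9%) and 360 in ExE (39.1%), against 10.2% and 15.6% of shared peaks. Of the regions, 177 had an H3K36me3 peak in ExE alone and 111 in epiblast alone. At promoter regions the shares were 27.8% in epiblast and 63.2% in ExE, and at shared promoter peaks 13.9% and 23.5%. Intergenic regions showed the opposite order, with 28.8% in epiblast and 23.7% in ExE. Peaks were called with a multivariate model, so these overlaps are a description.

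Within the windows of the regions themselves, H3K4me3 was higher in wild-type ExE at 76 and lower at 48 (limma over all peaks, adjusted p under 0.05). Among all 11810 peaks, 6.21% were higher and 22% lower. The median log2 difference was 0.07, and −0.01 over all peaks. With the replicate number of the labels as a block, 146 regions were higher and 60 lower in H3K4me3 (8.83% and 23% of all peaks). In CAST/B6 only replicate 2 was present in both tissues, so with the block the difference in that cross rested on this pair alone. Centring gave 149 and 40 (13% and 16.6% of all peaks) and edgeR 150 and 31 (11% and 15.5%). Without B6/CAST epiblast replicate 2 the higher count was 47, and without B6/CAST ExE replicate 1 it was 46. H3K36me3 in the same windows was higher at 14 regions and lower at 0 (limma; 0.246% and 0.0847% of all peaks), while at an unadjusted p under 0.05 there were 130 and 97 (5.34% and 7.3% of all peaks). By edgeR on recovered reads 101 were higher and 17 lower (4.28% and 2.4%). Leaving out any 1 wild-type library gave fewer, namely 5 and 7 without B6/CAST epiblast replicates 1 and 2, 0 and 4 without B6/CAST ExE replicates 1 and 2, 1 and 0 without CAST/B6 epiblast replicates 1 and 2 and 0 without either CAST/B6 ExE replicate.

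The 144 promoter regions held the 5′ ends of 158 protein-coding genes, of which 27 shared 13 regions. Most of these genes had more H3K36me3 over their bodies in ExE, while their promoters carried H3K4me3 in both tissues. H3K36me3 was higher in wild-type ExE for 110 of the 156 genes tested (70.5%) and lower for 1 (limma over 19515 autosomal genes with a mean of at least 0.2 RPKM, adjusted p under 0.05). Across all genes tested, 34.6% were higher and 5.95% lower. The median log2 difference was 0.34, with quartiles of 0.20 and 0.53, against 0.12 over all genes. In the 5011 genes tested with a 5′ end in a shared peak, 783 were higher and 591 lower, with a median of 0.01. All 4 ExE libraries lay above all 4 epiblast libraries for 102 of the 156 genes, as for 27.1% of all genes, and 1 had them all below (5.96% of all genes). Differences are on the scale of log2(RPKM + 0.5), which understates the change at low levels.

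This difference was present in each cross and in matDKO/CAST. Within B6/CAST both ExE libraries were above both epiblast libraries for 121 genes (77.6%; 46.2% of all genes), and within CAST/B6 for 127 (81.4%; 52.5%). In matDKO/CAST 67 genes were higher and 1 lower (13.6% and 1.85% of all genes), and 65 of the 110 were among those 67. No gene differed between matDKO/CAST and wild type in its tissue difference (limma interaction, 0 of 156, 0% of all genes; at an unadjusted p under 0.05, 3 were higher and 5 lower, as were 2.33% and 4.26% of all genes). Because the median over all genes was 0.12, each library was also centred on its median, and 84 genes were then higher and 4 lower (20.5% and 14.9% of all genes), while edgeR with TMM factors gave 88 and 10 (21.3% and 21.7%). With the replicate number as a block 112 were higher and 0 lower (37.3% and 6.23%). Markers of visceral endoderm moved in the same direction, with 12 of 17 genes higher in ExE and 1 lower, and their part in the result was not tested.

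Among the 158 genes were known trophoblast genes, and Tead4, Id2 and Peg10 were among the 8 with the largest H3K36me3 differences whose libraries did not overlap. Of 29 ExE markers measured, 3 (Tead4, Id2 and Lama1) had their 5′ end in such a region and 21 in a shared peak, and 20 of the 29 had more H3K36me3 in ExE by limma, 20 by edgeR and 19 after centring. Of 17 epiblast markers, whose H3K36me3 was lower in ExE for 9 and higher for 1, none lay in such a region and 10 lay in a shared peak. Snai1 was the only 1 of 27 mesoderm and primitive streak regulators, and none of 26 ectoderm and neural regulators or 51 signalling genes was found, while 24, 26 and 31 of these had a shared peak. Of all 20807 autosomal protein-coding genes 0.759% had their 5′ end in such a region, so that 0 genes in lists of this length are near that share. Among 25 trophoblast adhesion, transport and secreted genes, Peg10 and Inha were the 2 found.

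Tead4 had 0.584, 0.543, 0.545 and 0.478 RPKM of gene-body H3K36me3 in epiblast and 1.76, 1.51, 1.31 and 1.28 in ExE. The tissues did not overlap (log2 difference 0.92, SE 0.08, limma adjusted p = 0.000324). For Id2 the values were 0.312, 0.572, 0.710 and 0.770 RPKM in epiblast and 2.18, 1.41, 1.61 and 2.24 in ExE, again without overlap (1.12, SE 0.15, limma adjusted p = 0.000918). Promoter H3K4me3 of both genes was present in epiblast already, at 18.6 to 29.4 RPKM for Tead4 and 10.6 to 15.2 for Id2. In ExE it was 28.2 to 35.6 and 12.6 to 21.0 RPKM. By limma without the block neither difference passed, while both passed with the replicate block, after centring and by edgeR on recovered reads (with the block, Tead4 log2 0.46, SE 0.16, limma adjusted p = 0.0128, without block 0.0705; Id2 0.62, SE 0.11, adjusted p = 2.88e-07, without block 0.0881). Lama1, a laminin chain of basement membranes, had 0.622, 0.569, 0.913 and 0.840 RPKM of H3K36me3 in epiblast and 1.38, 1.34, 0.985 and 1.15 in ExE, with no overlap (0.47, SE 0.07, limma adjusted p = 0.00108), and its H3K4me3 difference of 0.18 (SE 0.19) did not pass (limma adjusted p = 0.717). Id1, a relative of Id2 and a known target of BMP signalling, had 26.0, 16.4, 30.9 and 18.7 RPKM of H3K4me3 in epiblast and 34.3, 31.1, 33.4 and 46.0 in ExE, also without overlap (0.67, SE 0.19, limma adjusted p = 0.00326).

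Peg10, a retrotransposon-derived gene that is expressed from the paternal allele and needed for the placenta, had the largest H3K36me3 difference of the genes. Values were 0.541, 0.624, 0.792 and 0.695 RPKM in epiblast and 3.06, 2.41, 1.93 and 1.85 in ExE, without overlap (log2 1.26, SE 0.11, limma adjusted p = 0.00035), and 0.752 and 0.904 against 2.29 and 3.42 in matDKO/CAST. H3K27me3 at the 6000 bp region was 0.804, 1.38, 0.895 and 0.749 RPKM in wild-type epiblast and 0.231, 0.276, 0.137 and 0.184 in ExE. Its promoter H3K4me3 was 7.25 to 12.9 RPKM in epiblast and 10.9 to 13.5 in ExE (0.32, SE 0.19, limma adjusted p = 0.298), while in matDKO/CAST it was 20.3 and 18.9 in epiblast and 19.3 and 28.1 in ExE, above each wild-type library. Sgce, which encodes a sarcoglycan, starts in the same region, so their promoter values overlap. Inha, the inhibin alpha subunit, passed the test in neither active mark, with an H3K36me3 difference of 0.04 (SE 0.13, limma adjusted p = 0.859) and H3K4me3 of 8.07 to 12.8 RPKM in epiblast and 8.10 to 13.3 in ExE (limma adjusted p = 0.999). Neither mark passed at Snai1, a regulator of epithelial-to-mesenchymal transition, with H3K4me3 of 8.96 to 20.8 RPKM in epiblast and 10.8 to 17.6 in ExE.

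The other large H3K36me3 differences were at genes with varied roles. Klhl22, a substrate adaptor of a ubiquitin ligase, had 0.891, 0.735, 0.959 and 0.906 RPKM in epiblast and 3.07, 2.13, 2.10 and 2.24 in ExE (log2 1.06, SE 0.11, limma adjusted p = 0.000469). Its promoter H3K4me3 was higher as well, at 10.9, 4.73, 4.5 and 5.60 RPKM in epiblast and 18.6, 14.0, 10.8 and 17.9 in ExE, where 1 pair of libraries overlapped (1.24, SE 0.18, limma adjusted p = 4.55e-10). Pwwp2b, whose PWWP domain is of a type that binds methylated H3K36, had 0.557, 0.545, 0.724 and 0.607 RPKM in epiblast and 2.20, 2.20, 1.66 and 1.44 in ExE (1.09, SE 0.12, limma adjusted p = 0.000558), and its H3K4me3 was higher too (0.60, SE 0.19, limma adjusted p = 0.0105). Mob3c, a MOB-family kinase activator, had 0.223, 0.450, 0.311 and 0.377 RPKM in epiblast and 1.56, 1.24, 1.04 and 1.14 in ExE (1.05, SE 0.13, limma adjusted p = 0.000763). None of the H3K36me3 values of these genes overlapped between the tissues. Npl, which breaks down sialic acid, rose from a mean of 0.646 ± 0.0613 RPKM (SD, n = 4) to 1.86 ± 0.385 (limma adjusted p = 0.000413). Ass1, which makes the arginine precursor argininosuccinate, rose from 0.529 ± 0.0949 to 1.35 ± 0.157 RPKM (limma adjusted p = 0.000355), and its promoter H3K4me3 passed with the replicate block (0.37, SE 0.11, limma adjusted p = 0.00351, without block 0.537), after centring and by edgeR. Mknk1, a MAP kinase-interacting kinase, starts in the same region as Mob3c. The 1 gene with less H3K36me3 in ExE was Olfr1311, an olfactory receptor gene at 0.780, 0.437, 0.628 and 0.698 RPKM in epiblast and 0.364, 0.430, 0.172 and 0.315 in ExE (−0.47, SE 0.13, limma adjusted p = 0.0213) without overlap. It no longer passed with the replicate block or without B6/CAST epiblast replicate 1, B6/CAST ExE replicate 1, CAST/B6 epiblast replicate 2 or CAST/B6 ExE replicate 1 (−0.36 to −0.45). It belongs to a large family of similar genes, and how reads were shared among them was not tested. In matDKO/CAST its libraries overlapped, at 0.319 and 0.624 RPKM in epiblast and 0.743 and 0.499 in ExE (0.22, SE 0.19, limma adjusted p = 0.45).

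**Figure D3:**
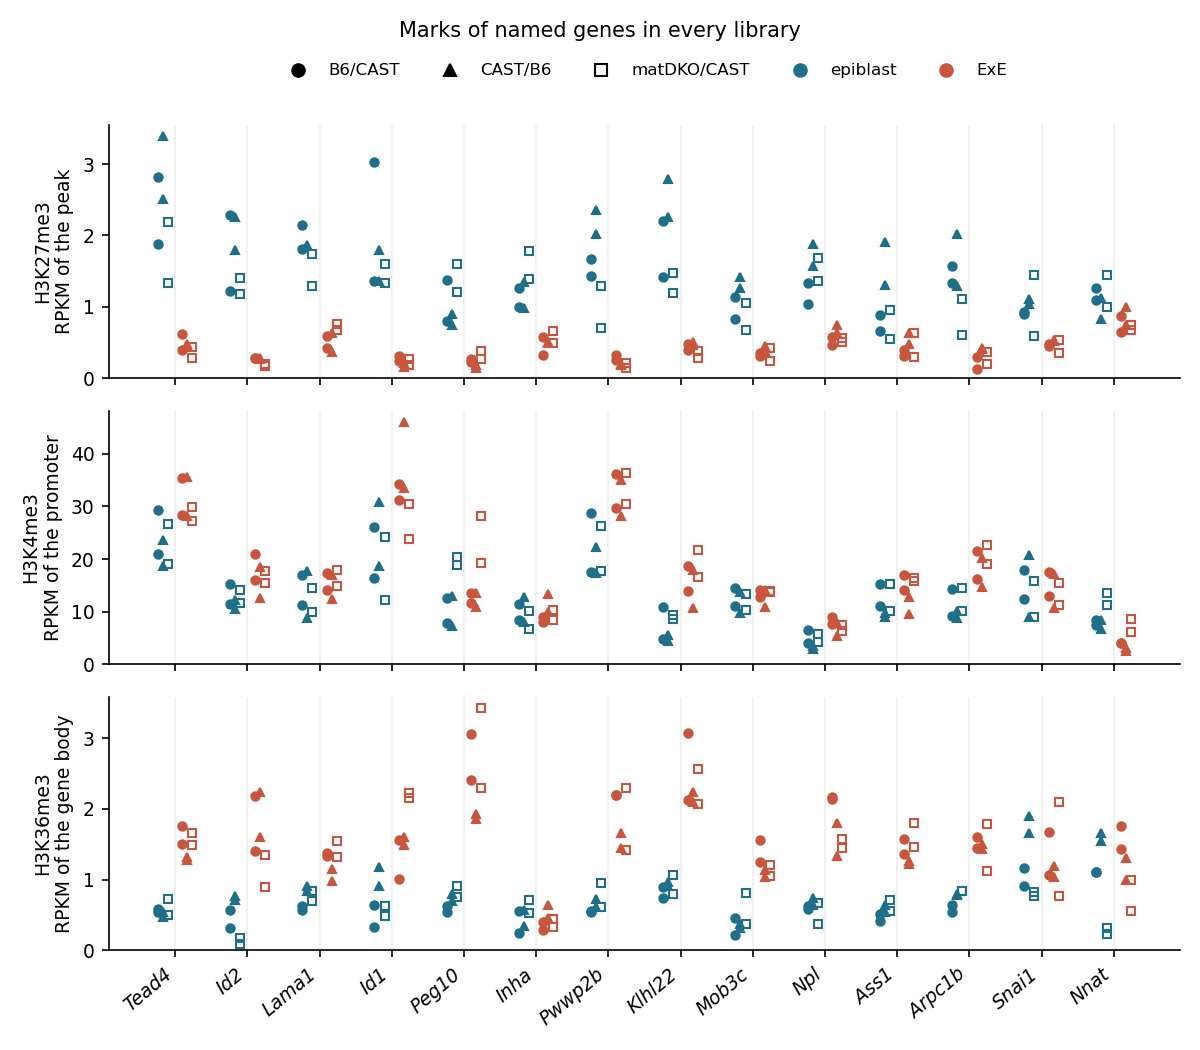
Values of 14 of the named genes in every library, with H3K27me3 of the region (top), promoter H3K4me3 (middle) and gene-body H3K36me3 (bottom) in RPKM; epiblast is blue, ExE is red, and open squares are matDKO/CAST. H3K36me3 of Tead4 and Id2 lies at 1.28 RPKM or more in all wild-type ExE libraries and at 0.770 or less in wild-type epiblast, while that of Inha, Snai1 and Nnat overlaps between the tissues.

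Promoter H3K4me3 passed the test at 28 genes, against 111 for gene-body H3K36me3, but after centring these numbers were 90 and 88 and by edgeR 96 and 98. By limma without centring it was higher in wild-type ExE for 22 of the 151 genes tested (14.6%) and lower for 6 (limma over 14355 autosomal promoters with a mean of at least 0.5 RPKM, adjusted p under 0.05). Of all promoters tested 4.04% were higher and 15.5% lower. Visceral endoderm markers were higher at 9 of 16 promoters and lower at 3, with a median log2 difference of 0.73, and their part in the result was not tested. Over the 151 genes the median log2 difference was 0.12 against −0.08 over all promoters, and of the 4426 promoters tested in shared peaks 164 were higher and 1698 lower. Of the 158 genes, 151 of which passed the filter, 134 (84.8%) reached 5 RPKM in epiblast and 136 (86.1%) in ExE. Among the 14355 promoters past the filter the shares were 84.5% and 80.3%, so the bases of these shares differ. With the replicate block, 50 were higher and 10 lower (7.17% and 21.9% of all promoters). Centring on library medians gave 78 and 12 (15.8% and 20%) and edgeR on recovered reads 85 and 11 (19.8% and 20.1%). The higher count was 9, 10, 11 and 13 without B6/CAST epiblast replicate 2, B6/CAST ExE replicate 1, CAST/B6 epiblast replicate 3 and CAST/B6 ExE replicate 2, respectively. Within B6/CAST both ExE libraries were above both epiblast libraries at 36 promoters (23.8%; 9.98% of all) and within CAST/B6 at 46 (30.5%; 6.54%). In matDKO/CAST 6 promoters were higher and 4 lower (1.84% and 10.6% of all promoters), and 0 of 151 differed from wild type in the tissue difference (limma interaction, 0.0209% of all promoters). At an unadjusted p under 0.05 this was 0 of 151, while 29 were higher and 207 lower of all 14355 promoters.

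Both marks were higher in ExE for 21 genes, and 88 genes were higher in H3K36me3 without a call in H3K4me3, against 1.68% and 32.5% of all genes. This split depended on the scaling, with 62 and 21 genes after centring (5.99% and 14.1% of all genes), 71 and 17 by edgeR (7.53% and 13.4%) and 45 and 65 with the replicate block (3.15% and 33%). Gm14401, a predicted gene, was the 1 gene with more H3K4me3 only, at 2.50, 1.71, 0.860 and 1.57 RPKM in epiblast and 5.97, 5.59, 2.94 and 4.94 in ExE (log2 1.33, SE 0.19, limma adjusted p = 3.12e-11), without overlap. Arpc1b, a subunit of the complex that nucleates branched actin, had 14.4, 9.16, 10.2 and 8.81 RPKM in epiblast and 21.5, 16.2, 14.7 and 20.2 in ExE, where the lowest ExE library exceeded the highest epiblast one narrowly (0.76, SE 0.19, limma adjusted p = 0.000491). It also had more H3K36me3, with 0.686 ± 0.122 RPKM (SD, n = 4) in epiblast and 1.49 ± 0.0726 in ExE (0.75, SE 0.10, limma adjusted p = 0.000823). The shared promoter of Irak4, a kinase of Toll-like receptor signalling, and Pus7l, a putative pseudouridine synthase, had 14.9, 10.3, 14.6 and 9.11 RPKM in epiblast and 20.5, 16.7, 17.0 and 24.6 in ExE (0.68, SE 0.19, limma adjusted p = 0.00239). The tissues did not overlap there. This promoter counts once as a measurement although it is listed for 2 genes. Over the 158 genes, 1 had less H3K4me3 and more H3K36me3, namely Aes, a Groucho-family corepressor (H3K4me3 −0.51, SE 0.18, and H3K36me3 0.24, SE 0.07, limma adjusted p of 0.0293 and 0.0254).

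A few promoters had less H3K4me3 in ExE. Olfm3, a secreted olfactomedin of neural tissue, had 4.51, 5.16, 3.69 and 2.09 RPKM in epiblast and 1.11, 1.17, 0.542 and 0.729 in ExE (log2 −1.62, SE 0.19, limma adjusted p = 1.92e-15), with no overlap, although H3K27me3 of its 2000 bp region overlapped (0.550 to 1.54 and 0.404 to 0.742 RPKM). Its H3K4me3 was 3.91 and 4.24 against 0.481 and 0.475 in matDKO/CAST. Nnat, an imprinted gene named for neuronal expression that lies inside an intron of Blcap, had 8.43, 7.39, 8.45 and 6.65 RPKM in epiblast and 4.06, 4.05, 2.54 and 3.17 in ExE, also apart (−1.07, SE 0.18, limma adjusted p = 8.82e-08). Its body H3K36me3 did not pass the test (0.01, SE 0.11, limma adjusted p = 0.953). In matDKO/CAST it was 0.319 and 0.238 RPKM in epiblast, where wild type had 1.11 to 1.66, and 0.991 and 0.561 in ExE (0.69, SE 0.16, limma adjusted p = 0.0254). These values rest on few reads, since 1 read in a window was worth 0.479 and 0.178 RPKM in these epiblast libraries and 0.297 and 0.187 in ExE. The limma interaction with wild type called none of the 156 genes tested. March10, a ubiquitin ligase, and 2410137M14Rik were lower too, by −1.08 (SE 0.19) and −0.83 (SE 0.18) on the log2 scale (limma adjusted p of 1.11e-07 and 6.01e-05).

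**Figure D4:**
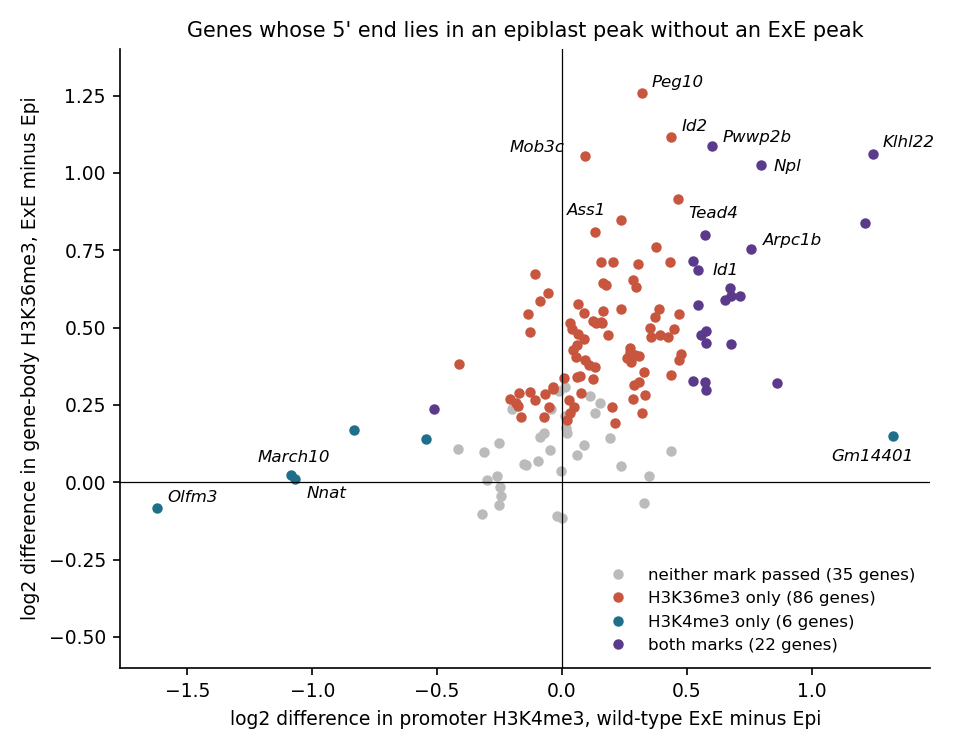
Log2 difference between wild-type ExE and epiblast in promoter H3K4me3 (x) and gene-body H3K36me3 (y), with 1 point per gene for the genes tested in both marks and colour for the mark that passed the adjusted p. Most points lie above the horizontal line, where H3K36me3 is higher in ExE, and few lie far to the left, among them Olfm3 at −1.62.

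A set of 6 short motifs of factors known in trophoblast or as general promoter elements were searched on both strands of the 102 promoter windows inside the regions. GCCNNNGGC, bound by TFAP2 factors, was in 34.3% of them and in 16.7% of all 31365 RefSeq promoters, and among the windows printed above in that of Mob3c. CACGTG, the E-box, was in 10.8% against 7.14% and CCGGAAG, an ETS site of the ELF5 type, in 7.84% against 9.0%, and both were in Klhl22. The CDX motifs TTTATTG and TTTATGG were found in 0.980% against 4.49% and in 1.96% against 2.77%, and the T-box AGGTGTGA in 1.96% against 1.28%. None of the 6 is contained in another, and the shares were not compared by a test. The 102 windows were richer in CpG than all promoters, with medians of 22 and 7 per window. The part of base composition in these shares was not tested.

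Reads that carry a B6 or CAST variant told the parental alleles apart in epiblast. At least 20 reads in 1 allele of a wild-type library were found for 359 of the 921 regions (39.0%), and paternal reads made up 48.6% to 51.2% of all allelic reads over the regions in the 4 wild-type libraries. Exactly 1 region had the same parent higher in both crosses, and 17 had the same strain higher, 9 with CAST and 8 with B6 (edgeR quasi-likelihood test within each cross, adjusted p under 0.05 over 8924 informative peaks). Among all informative peaks these shares were 0.325% and 1.01%. With the library as a block the counts were 1 and 45, and the block is a true one here because both alleles come from the same library. The shares above belong to the fit without the block, so the 45 and the counts of the alternative fits have no share beside them. Whatever the result in the other cross, 22 regions passed in B6/CAST (1.56% of all) and 81 in CAST/B6 (12.9%). The strain count was 7 without CAST/B6 replicate 1 and 8 without replicate 2, and DESeq2 gave 8.

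The region with a parental bias lay in introns of Igf2r and of Airn, which is transcribed from the opposite strand, 690 bp from the 5′ end of Airn (chr17:12742001-12744000, GRCm38). Igf2r, a receptor that clears insulin-like growth factor, is expressed from the maternal allele in most tissues, and Airn is the non-coding antisense RNA that starts within it on the paternal allele. Paternal reads made up 88.9%, 90.9%, 85.3% and 88.9% in the 4 wild-type libraries, with 16, 20, 29 and 16 paternal and 2, 2, 5 and 2 maternal reads. The exact 95% binomial (Clopper-Pearson) intervals were 65.3% to 98.6%, 70.8% to 98.9%, 68.9% to 95.05% and 65.3% to 98.6%. In matDKO/CAST the share was 57.1% in both libraries, with 20 paternal and 15 maternal reads in the first and 4 and 3 in the second, and intervals from 39.4% to 73.7% and from 18.4% to 90.1%. The log2 ratio of paternal to maternal reads reached 3.21 for B6/CAST embryos and 2.63 for CAST/B6 embryos (edgeR adjusted p of 0.00523 and 2.83e-05). DESeq2 did not call it, nor did edgeR without CAST/B6 replicate 1 or without CAST/B6 replicate 2. Intervals cover counting error only. The centre of the region is shown with its CpGs in capitals because this was the region with the same parent higher in both crosses.
Igf2r region, chr17:12742851-12743150, plus strand, GRCm38: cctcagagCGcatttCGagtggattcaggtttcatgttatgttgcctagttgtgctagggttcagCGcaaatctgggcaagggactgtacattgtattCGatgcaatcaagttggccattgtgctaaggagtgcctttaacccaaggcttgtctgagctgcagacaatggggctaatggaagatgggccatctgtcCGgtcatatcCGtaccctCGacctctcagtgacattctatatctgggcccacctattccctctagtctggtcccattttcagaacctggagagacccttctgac

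Strain differences lay at promoters and elsewhere, and the paternal share is given with its exact 95% interval, so that a CAST bias reads high in B6/CAST and low in CAST/B6. At Qsox1, a sulfhydryl oxidase, it was 83.2% (74.4 to 89.9) and 83.2% (75.7 to 89.2) in B6/CAST and 29.5% (22.9 to 36.9) and 28.7% (20.1 to 38.6) in CAST/B6. The CAST allele was also the higher one at the promoter of Rilpl2, with 77.2% (67.8 to 85.0) and 76.0% (67.4 to 83.3) in B6/CAST and 16.9% (11.2 to 23.9) and 17.5% (11.2 to 25.5) in CAST/B6. In Atf6, a sensor of endoplasmic reticulum stress, the region was nearly all B6, at 9.68% (2.04 to 25.8) and 7.14% (1.50 to 19.5) in B6/CAST and 93.3% (85.1 to 97.8) and 98.2% (90.4 to 99.95) in CAST/B6. A region in the body of Tnik, a kinase of Wnt signalling, favoured B6 as well, with 13.7% (5.70 to 26.3) and 14.8% (6.62 to 27.1) in B6/CAST and 75% (59.7 to 86.8) and 92.0% (74.0 to 99.0) in CAST/B6. In each of these 4 regions the intervals of the reciprocal crosses did not overlap.

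**Figure D5:**
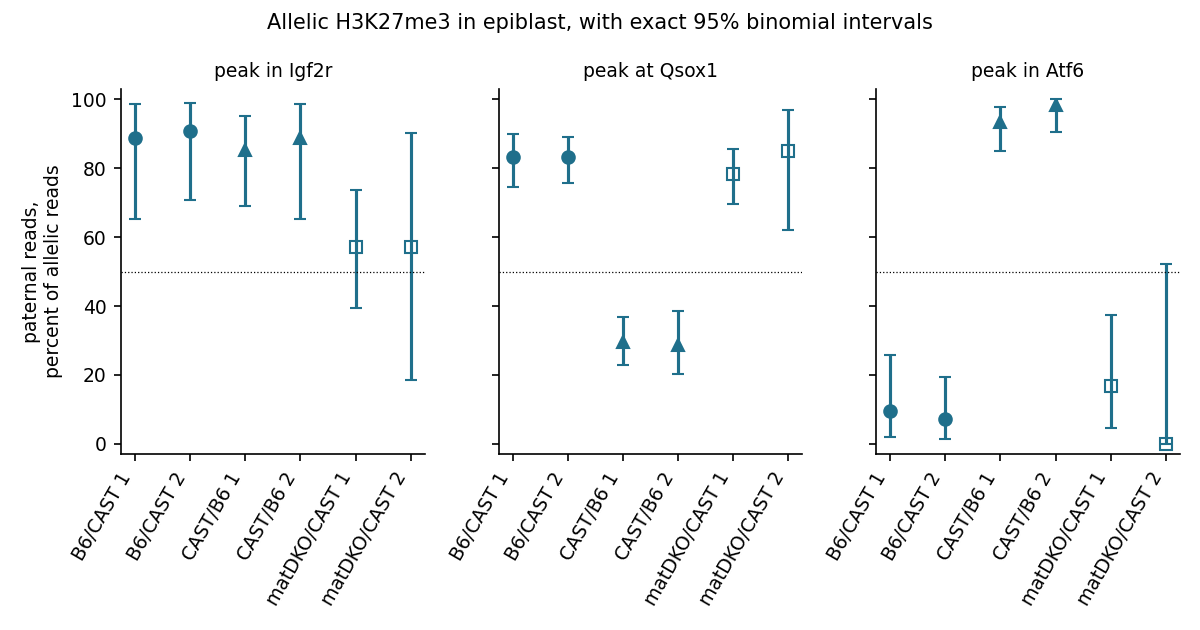
Paternal share of allelic H3K27me3 reads in each epiblast library for the regions in Igf2r, at Qsox1 and in Atf6, with exact 95% binomial intervals and a dotted line at equal shares. The Igf2r region is paternal in both reciprocal crosses (85.3% to 90.9%), while Qsox1 and Atf6 switch sides between the crosses, following the strain.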

How the data were processed

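The data came from 51 ultra low-input native ChIP-seq libraries of epiblast and ExE, with 12 for each of H3K27me3, H3K4me3 and H3K36me3 and 15 inputs. The submitters' processing notes name Trim Galore 0.4.4, Bowtie2 2.3.2 and GRCm38, and reads were aligned to a genome with strain variants masked and sorted by allele with SNPsplit. The authors deposited RPKM values in 1 kb windows for every library. Peak intervals were called by the authors with chromstaR at default settings on the wild-type crosses, and the score column of these deposited lists was 0 throughout. The authors also deposited maternal and paternal read counts over de-duplicated epiblast H3K27me3 peaks.

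From these files the mean RPKM of the windows was taken over each peak, over the annotated 5′ end ± 1000 bp (promoter) and over the gene body, with GENCODE vM21 on GRCm38. Library sizes were read from the value of a single read, since 100% of low values were whole multiples of it to within 0.05 reads. Tests used limma 3.58.1 on log2(RPKM + 0.5) with all 12 libraries of a mark in 6 groups, two-sided, with Benjamini-Hochberg adjustment over all features. Filters were a mean of 0.5 RPKM for promoters (151 of 158 genes passed) and 0.2 RPKM for bodies (156 passed). Allelic counts were tested with edgeR 4.0.16 (TMM factors, quasi-likelihood) in each cross, with DESeq2 1.42.0 as an alternative, on peaks with at least 20 reads in 1 allele column of a wild-type library. The spread behind a limma p-value was estimated over all 12 libraries of a mark and moderated across features. For matDKO/CAST it therefore rests in part on the wild-type pools. On simulated libraries with known changes, the matDKO/CAST fits, with 2 libraries per tissue, found fewer of the changes than the wild-type fits. They also made more false calls, above the threshold for each mark.

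Genes were named if they were among the 8 largest differences in a mark and direction that passed with libraries of the tissues apart, on a list of markers or regulators, at one of the 8 regions with the highest summed H3K27me3 or the 5 longest, or among 5 regions per allelic category. A few results that this rule names are not reported here. The regions, lists and motifs were chosen with earlier results of these data known. Same-numbered H3K4me3 libraries of the tissues deviated together, with correlations from 0.147 to 0.348 in every pair over peaks and promoters. The numbers come from the labels, so values with the number as a block stand beside the H3K4me3 results. In CAST/B6 and matDKO/CAST only replicate 2 of H3K4me3 was present in both tissues. Other allelic tables and whole-genome windows outside peaks and genes were not used here.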

Additional observations from a re-analysis of the deposited data

Results flagged for a closer look

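Klhl22 H3K36me3 in ExE stood out because 1 of the 4 wild-type libraries, B6/CAST replicate 1 at 3.07 RPKM, lay far from the others at 2.10 to 2.24. It was the 1 such case in 70 groups of 4 libraries checked, where chance alone gives about 1 in 20.

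For 8 of the 156 genes the H3K36me3 difference between ExE and epiblast was smaller in CAST/B6 than in B6/CAST (limma interaction, adjusted p from 0.0458 to 0.0496, a comparison added after seeing the data). Over all genes 5.86% passed in this direction, and at an unadjusted p under 0.05 the difference was smaller for 33 of the 156 (21.2%, 21.8% of all genes) and larger for 3 (1.92%, 10.5% of all genes). The 2 differences were unlike by −0.91 on the log2 scale for Prdx6, a peroxiredoxin, by −0.66 for Dennd5b, by −0.64 for Fam208b, by −0.58 for Lama1, by −0.53 for Foxj2, by −0.52 for Prdm2, by −0.51 for Mknk1 and by −0.50 for Usp3. At Prdx6 the B6/CAST libraries had 2.13 and 1.65 RPKM in epiblast and 3.62 and 3.29 in ExE, while CAST/B6 had 2.94 and 3.02 in epiblast and 2.40 and 2.76 in ExE. At Fam208b the CAST/B6 libraries overlapped, with 1.71 and 1.74 RPKM in epiblast and 1.68 and 1.83 in ExE, and at the other 6 genes all ExE libraries were above those of epiblast in both crosses. The CAST/B6 ExE libraries are the ones with the higher median over all promoters (0.515 and 0.494 RPKM against 0.268 and 0.287), and the part of this in the result was not tested.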

How the results depend on the processing

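No called value changed direction under the alternatives run. Requiring a peak in both epiblast lists left 271 regions, and counting only long ExE peaks gave 2776. Regions lower in matDKO/CAST ExE numbered 218 with library weights and 203 to 401 when 1 library was left out (203 without matDKO/CAST ExE replicate 2), and higher ones 18 with the replicate block, 2 with a filter at 0.5 RPKM, 0 at an adjusted p under 0.01, after centring, with only the groups compared, with weights or by edgeR, and 1 to 24 with 1 library left out. H3K4me3 was higher at 41 regions at an adjusted p under 0.01, 149 after centring, 146 with the replicate block and 150 by edgeR (lower at 31), and at 46 to 86 with 1 library left out (46 without B6/CAST ExE replicate 1, 47 without B6/CAST epiblast replicate 2). H3K36me3 was higher at 4 regions at p under 0.01, 54 with a filter at 0.5 RPKM, 9 after centring, 4 with the replicate block, 32 with only the groups compared, 38 with weights, 101 by edgeR and 0 to 7 whichever of the 8 libraries was left out. It was lower at 11 regions with that filter, 7 with only the groups compared, 8 with weights, 17 by edgeR and 0 to 1 with 1 library left out. Promoter H3K4me3 was higher at 11 genes at p under 0.01, 10 without a filter (lower at 3), 78 after centring (12), 50 with the block (10), 85 by edgeR (11) and 9 to 32 with 1 library left out (9 and 11 without B6/CAST replicate 2 or CAST/B6 replicate 3 of epiblast, 10 and 13 without B6/CAST replicate 1 or CAST/B6 replicate 2 of ExE). Gene-body H3K36me3 was higher at 84 to 148 genes over all alternatives, and lower at 0 at p under 0.01 or with the block, 4 after centring or with any transcript start, 10 by edgeR and 0 to 1 with 1 library left out. The same parent was higher at 0 regions by DESeq2, 2 without a filter and 0 to 1 with 1 library left out, and the same strain at 8, 28 and 7 to 24, and at 45 with the block and 10 at p under 0.01. Without either CAST/B6 library, the same-parent count was 0 and the same-strain count 7 or 8. Where counts moved, the cause was not tested.

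The numbers could not be taken to pair the H3K27me3 and H3K36me3 libraries, since correlations of deviations began at 0.0245 and −0.00698. Every H3K27me3 correlation and every gene-body H3K36me3 correlation was above 0, a hint from the data and not from the design. With the block, 333 regions were lower in matDKO/CAST ExE and 112 genes higher (37.3% of all genes) and 0 lower in H3K36me3, so that Olfr1311 no longer passed. Of the values for single named genes or regions under each alternative, 1133 stayed on their side of the threshold, 95 lost and 30 gained a call. Among the 1133 were 40 that passed in neither fit and changed sign. Library weights and edgeR on recovered reads were added after the data were seen.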
